A study of Mus musculus with 10 samples.

Results

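Chromatin at 4 long genes, Cadps, Dpp10, Ptprr and Trpm6, was described in ATAC-seq peak lists of mouse bone marrow stroma. ATAC-seq marks open chromatin: a transposase inserts adapters where DNA is exposed, and a peak is a stretch with more fragments than background. The 4 genes were taken from 21627 protein-coding genes and selected on measured values: their loci held many peak summits in revitalized mesenchymal stromal cells (rMSC) and few or none in fresh Scf-GFP-positive stroma. Both of those levels therefore serve as a description here and carry no test. A summit is the base of greatest fragment pile-up in a peak, and a locus runs from 10 kb before a gene body to 10 kb after it. All 4 loci are among the 9160 that averaged 2 or more summits over the 10 libraries, a minimum they reached through their high groups.

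The 10 libraries came from C57BL/6J mice and form 4 groups. Fresh stroma was sorted as CD45-, Ter119- and CD31- cells and then split by Scf-GFP, a reporter of the gene for stem cell factor, into Scf-GFP-negative cells (2 libraries) and Scf-GFP-positive cells (2 libraries), neither of which was cultured or transduced. The control group (3 libraries) is stroma transduced with a control vector, and rMSC (3 libraries) is stroma transduced with the transcription factor genes Klf7, Xbp1, Irf3 and Irf7 and with Ostf1, 5 genes in all. Per the labels' protocols, the cultures were seeded with Scf-GFP-positive cells and grown with 20% fetal bovine serum and 10 ng/ml basic fibroblast growth factor, so rMSC and control differ in the transduced genes and share the culture, while both differ from fresh cells by culture as well. Each library was made from 2700 to 5000 cells. The labels give no age and do not say whether libraries of a group came from separate animals or cultures, so errors and p-values cover the spread among these libraries, and that spread may be technical. In such bulk libraries, fewer cells with an open site and a less open site in each cell cannot be told apart.

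The deposited lists hold 39936 to 78489 peaks, with 66282 to 78489 in rMSC and 39936 to 46947 in Scf-GFP-negative libraries. Counts were therefore also taken in lists of equal size, which keep in every library the 39912 peaks that rank highest by −log10 p. The weakest peaks kept had −log10 q of 2.10 to 2.65 in Scf-GFP-negative and 4.27 to 4.29 in Scf-GFP-positive libraries. In control they had 4.62 to 5.13 and in rMSC 4.67 to 5.80, so lists of equal size do not share a threshold. Fragments per library are not given in the lists, and their weakest summits rest on 3 to 5 fragments. Mesenchymal marker loci (12 genes) held 62 to 74 summits in Scf-GFP-positive, 56 to 68 in control, 45 to 50 in rMSC and 10 to 12 in Scf-GFP-negative libraries, where Prrx1 and Twist1 were at 0, and Lepr was at 0 in both cultures. Haematopoietic marker loci (10 genes) held 32 to 41 summits in Scf-GFP-negative libraries and 8 to 12 in the others. Endothelial marker loci (7 genes) held 8 to 18 summits in Scf-GFP-negative, 7 in Scf-GFP-positive, 9 to 12 in control and 9 to 11 in rMSC libraries, and epithelial ones (5 genes) 2, 3 to 4, 1 to 5 and 6 to 7.

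The 4 genes act in separate pathways and are best known outside the marrow. Cadps encodes CAPS1, which primes dense-core vesicles for calcium-regulated release in neurons and endocrine cells. Dpp10 encodes a membrane protein of the dipeptidyl peptidase family that lacks peptidase activity and serves as an auxiliary subunit of Kv4 potassium channels. Ptprr encodes a tyrosine phosphatase with a kinase interaction motif that binds and dephosphorylates MAP kinases, and Trpm6 encodes a magnesium-permeable channel fused to a kinase, known for magnesium uptake in gut and kidney. Open sites far from a promoter often act as enhancers, and a gene body can hold enhancers of a neighbouring gene, so a site inside a gene does not say which gene it serves.

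In build mm10 (GRCm38), Cadps (Gene ID 27062) is on the minus strand at chr14:12372560-12823339 and Dpp10 (269109) on the minus strand at chr1:123332138-124845815. Ptprr (19279) is on the plus strand at chr10:116018188-116274932 and Trpm6 (225997) on the plus strand at chr19:18730177-18892521. With their flanks the loci span 471, 1534, 277 and 182 kb, longer than 98.0%, 99.9%, 94.7% and 90.1% of the tested loci. Exons and introns were not analysed here, since the annotation used gives 1 interval per gene.

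The promoter windows of RefSeq (GRCm38.p6; 250 bases before to 50 after a start, matched for all 4 genes) are shown because open chromatin at these loci lay mostly away from them. The Cadps window at chr14:12823030-12823329 was overlapped by a peak in rMSC replicates 1 and 3 and in none of the other 8 libraries. The Dpp10 window at chr1:124045510-124045809 lies 800 kb inside the gene interval, and the nearest rMSC peak of any kind was 4451 bases away. Of 4 Ptprr windows, that at chr10:116177008-116177307 is shown, which is nearest, at 868 bases, to a site open in every rMSC library. The Trpm6 window at chr19:18749480-18749779 was 1479 bases from the nearest control peak and 2435 from the nearest rMSC peak. No peak of any library overlapped a Dpp10, Ptprr or Trpm6 window. Each window is written 5′ to 3′ on the gene's strand, and capitals mark matches, on either strand, of the motifs that the next paragraph spells out.
Cadps: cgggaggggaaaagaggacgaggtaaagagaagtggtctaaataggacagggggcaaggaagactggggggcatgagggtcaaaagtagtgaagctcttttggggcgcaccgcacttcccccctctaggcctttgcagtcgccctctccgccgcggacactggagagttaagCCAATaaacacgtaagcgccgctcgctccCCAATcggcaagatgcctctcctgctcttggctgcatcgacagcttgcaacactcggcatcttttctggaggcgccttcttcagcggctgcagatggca
Dpp10: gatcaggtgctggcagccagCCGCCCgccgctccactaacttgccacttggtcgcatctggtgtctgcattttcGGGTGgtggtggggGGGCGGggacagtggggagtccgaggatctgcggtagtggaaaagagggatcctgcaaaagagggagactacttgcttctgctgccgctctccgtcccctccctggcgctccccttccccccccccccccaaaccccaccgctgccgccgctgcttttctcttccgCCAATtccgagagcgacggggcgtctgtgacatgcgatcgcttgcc
Ptprr: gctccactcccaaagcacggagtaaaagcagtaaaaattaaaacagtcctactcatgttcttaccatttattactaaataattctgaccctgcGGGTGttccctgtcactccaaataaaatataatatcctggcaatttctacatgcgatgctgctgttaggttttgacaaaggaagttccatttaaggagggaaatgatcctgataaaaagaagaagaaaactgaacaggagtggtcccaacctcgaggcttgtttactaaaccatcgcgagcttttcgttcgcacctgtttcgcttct
Trpm6: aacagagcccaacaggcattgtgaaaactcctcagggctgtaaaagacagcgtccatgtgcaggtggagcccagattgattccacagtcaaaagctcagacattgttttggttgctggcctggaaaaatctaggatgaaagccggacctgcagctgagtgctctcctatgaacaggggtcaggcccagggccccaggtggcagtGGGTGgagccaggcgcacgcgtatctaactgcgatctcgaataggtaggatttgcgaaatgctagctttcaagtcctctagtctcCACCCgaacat

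Motif matches in these windows followed no shared pattern. CACCC, a box that Klf factors can bind, matched once in the Dpp10 window, once in the Ptprr window shown and 2 times in the Trpm6 window, and 57.5% of all 32851 RefSeq windows hold it. The GC box GGGCGG matched 2 times at Dpp10 (35.7% of windows hold it), and CCAAT matched 2 times at Cadps and once at Dpp10 (37.4%). GACGTGG, which Xbp1 can bind, matched once in 1 Ptprr window, at chr10:116177101-116177400, and 2.42% of windows hold it. The AP-1 motif TGANTCA (7.81% of windows) and the interferon element GAAA, any 2 bases, GAAA (3.44%) matched in no window of the 4 genes.

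Cadps held summits almost solely in rMSC. In the deposited lists rMSC replicates 1 to 3 had 14, 16 and 15 summits, the control libraries 1, 0 and 0, the Scf-GFP-positive libraries 0 and 2, and the Scf-GFP-negative libraries 1 and 0. In equal-size lists the rMSC counts were 5, 9 and 9 (7.67 ± 2.31, SD, n = 3), the control counts 1, 0 and 0, and both fresh groups were at 0. The lowest rMSC library thus lay above every other library in both countings. Relative to control, the difference in equal-size lists was 3.46 ± 0.49 (SE) on the log2(summits + 0.5) scale, which understates ratios of low counts, and only Dpp10 had a larger difference among the 9160 tested loci.

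Dpp10, the longest of the 4 genes, showed the same contrast. Deposited counts were 18, 16 and 22 in rMSC, 0, 3 and 1 in control, 1 and 5 in Scf-GFP-positive and 6 and 0 in Scf-GFP-negative libraries. Equal-size counts were 9.67 ± 3.06 in rMSC (SD, n = 3, range 7 to 13), 0.333 ± 0.577 in control (n = 3), 1 in each Scf-GFP-positive library, and 4 and 0 in the Scf-GFP-negative libraries. Every rMSC library lay above every other library in both lists. The difference from control, 3.77 ± 0.80 (SE) on the log2(summits + 0.5) scale, ranked 1 of 9160. High rMSC counts chose the genes, so the ranks of Dpp10 and Cadps are no separate result. By the same difference Ptprr ranked 928 and Trpm6 2857.

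Ptprr held summits in both cultures and more of them in rMSC. Deposited counts were 11, 12 and 10 in rMSC, 4, 6 and 6 in control, 0 and 4 in Scf-GFP-positive and 2 and 0 in Scf-GFP-negative libraries. Equal-size counts were 6.33 ± 0.577 in rMSC (SD, n = 3), 4 in each control library, 0 in both Scf-GFP-positive libraries, and 1 and 0 in the Scf-GFP-negative libraries. The rMSC and control counts did not overlap, with a difference of 0.60 ± 0.35 (SE) on the log2(summits + 0.5) scale. Chromosome 10, where Ptprr lies, held 7.59% to 7.99% of equal-size peaks in rMSC and 5.58% to 6.04% in the other 7 libraries, and with every chromosome's share made equal across libraries the difference was 0.24 ± 0.36 (SE). The part of that excess in the Ptprr count was not otherwise tested. Chromosomes 1, 14 and 19 held 6.34% to 6.54%, 3.62% to 3.78% and 2.85% to 2.92% of equal-size peaks in rMSC, beside 6.62% to 6.73%, 3.76% to 3.94% and 2.92% to 3.07% in control.

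Trpm6 went against the label of a locus opened in rMSC when set beside control cultures. Deposited counts were 8, 9 and 8 in rMSC and 7, 10 and 9 in control, with 0 and 1 in Scf-GFP-positive and 0 in both Scf-GFP-negative libraries. Equal-size counts were 7 in each rMSC library and 6 ± 1.73 in control (SD, n = 3, range 5 to 8), and all 4 fresh libraries were at 0. The cultures overlapped, with a difference of 0.24 ± 0.18 (SE) on the log2(summits + 0.5) scale. Trpm6 is therefore described as a locus with summits in both cultures and few or none in fresh stroma.

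**Figure D1:**
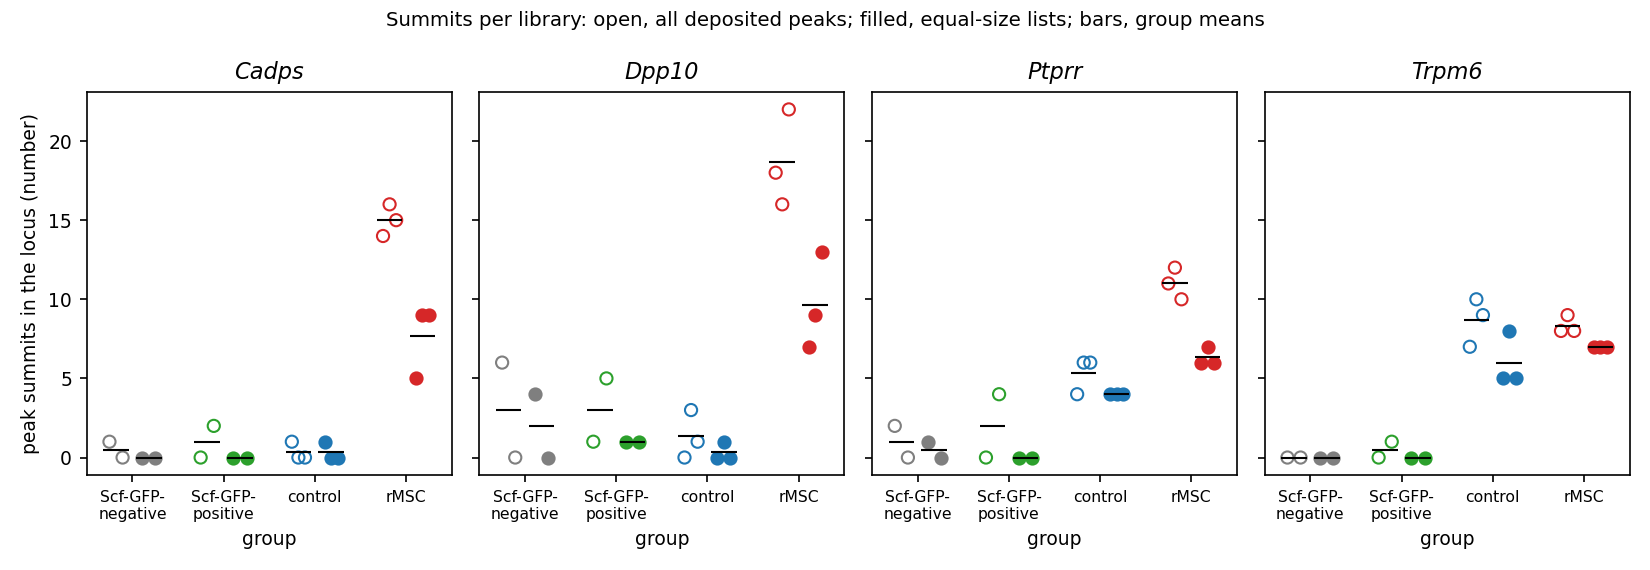
Peak summits (number, vertical axis) in the locus of each gene, by group. Open circles are libraries counted over all deposited peaks, filled circles the same libraries in equal-size lists, and bars are group means: rMSC stands alone at Cadps and Dpp10, lies above control at Ptprr and overlaps control at Trpm6.

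The count of loci follows the same order. In equal-size lists every rMSC library lay above every Scf-GFP-positive library at 4 of the 4 loci, as it did at 17.1% of all tested loci, and that contrast chose the genes. Every rMSC library lay above every control library at 3 of 4, Cadps, Dpp10 and Ptprr, beside 8.91% of all tested loci. With all deposited peaks these shares of all tested loci were 25.0% and 10.7%. Per 100 kb of locus, rMSC held 1.63 summits at Cadps, 0.630 at Dpp10, 2.29 at Ptprr and 3.84 at Trpm6, all below the median tested locus (5.98 per 100 kb). Most tested loci are shorter and had to average 2 or more summits, which raises their density, and loci of similar length were not compared.

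**Figure D2:**
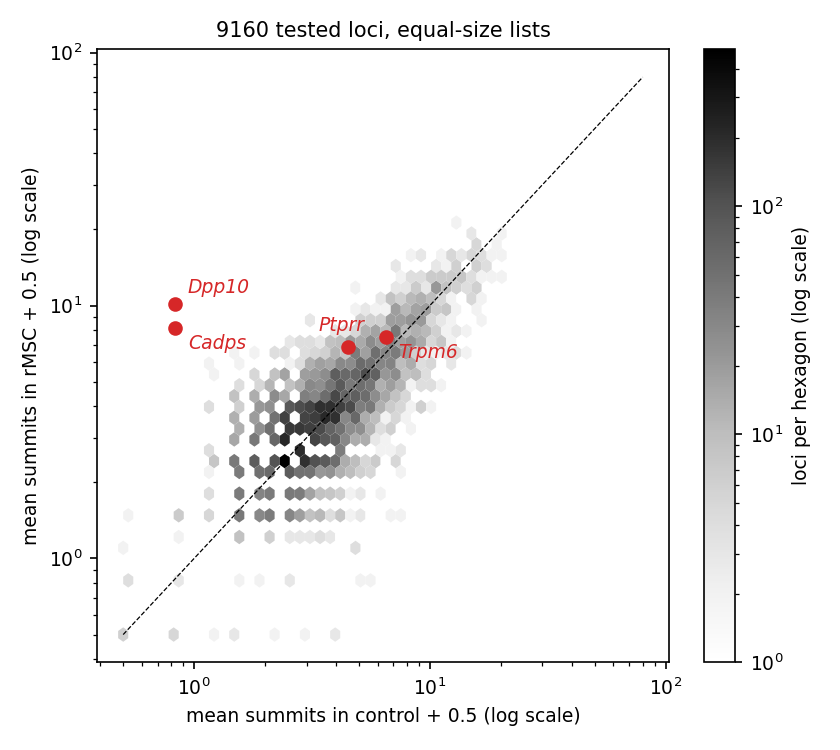
Mean summits per library in control (horizontal) and rMSC (vertical), both with 0.5 added and on log axes, for the 9160 tested loci in equal-size lists. Grey hexagons give the number of loci, the dashed line marks equal means, and red points mark the 4 genes: Cadps and Dpp10 lie far above the line, Ptprr slightly above it and Trpm6 close to it.

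Only control against Scf-GFP-negative stroma compares groups that did not choose the genes. Control shares its culture with rMSC, and Scf-GFP-negative cells are fresh like Scf-GFP-positive ones, so the choice may still favour this comparison. In that comparison Ptprr and Trpm6 were higher in control, and Cadps and Dpp10 did not pass (limma with a trend, Benjamini-Hochberg over 9160 loci, threshold 0.05). At Trpm6, control libraries held 5, 8 and 5 summits and both Scf-GFP-negative libraries 0 (adjusted p = 1.93e-05). At Ptprr, control libraries held 4 each and Scf-GFP-negative libraries 1 and 0, a log2 difference of 2.38 ± 0.39 (SE, adjusted p = 0.00299). At Cadps the difference was 0.53 ± 0.55 (SE, adjusted p = 0.473) and at Dpp10 -1.06 ± 0.89 (SE, adjusted p = 0.374). These p-values use a spread shared with the groups that chose the genes. With only the compared groups in the fit, adjusted p was 0.0032 at Trpm6 and 0.045 at Ptprr (limma).

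These calls stand among many. Of all tested loci, 16.5% passed as higher in control (1514) and 25.0% as lower (2289). The median tested locus was lower in control by 0.23 (log2), opposite in sign to the differences at Ptprr and Trpm6. With all deposited peaks the split was 2662 higher and 953 lower, and Ptprr no longer passed (adjusted p = 0.0572). With 50 kb on either side of the gene, Trpm6 no longer passed (log2 difference 0.44, adjusted p = 0.0625). Dpp10 rests on 1 library: without Scf-GFP-negative replicate 1 the difference was 0.53, and without replicate 2 it was -2.64 (adjusted p = 0.0312). Haematopoietic marker loci moved with this comparison, with 8 to 10 summits in control and 32 to 41 in Scf-GFP-negative libraries, and mesenchymal ones with 56 to 68 and 10 to 12; their part in the 2 calls was not tested.

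Peaks of the 10 deposited lists were merged into sites where they overlapped by at least 1 base, which gave 105 sites at the 4 loci, 54 of them in 1 library only. A total of 35 sites held a peak in all 3 rMSC libraries, and 34 of those held none in Scf-GFP-positive libraries. None of the 34 held a peak in Scf-GFP-negative libraries, but the share of such sites over the genome was not counted. Of the 34, 23 were in no control library, 5 in 1 or 2 and 6 in all 3. Over the genome, 13.5% of the 40995 sites in all 3 rMSC libraries were in no control library and 42.5% in no Scf-GFP-positive library, and 25.8% of the latter were in no control library. High rMSC counts chose the genes, so the larger share at these loci is no separate result. No site at these loci was in both Scf-GFP-positive libraries or in both Scf-GFP-negative libraries, and these shares were not counted over the genome either.

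By gene, the recurrent sites split in the same order as the counts. Cadps had 8 sites in all 3 rMSC and no Scf-GFP-positive library and Dpp10 had 12, and none of these 20 held a peak in a control library. Ptprr had 7, of which 3 were in no control library, 2 in some and 2 in all 3. Trpm6 had 7, of which 0 were in no control library, 3 in some and 4 in all 3. Trpm6 also held 1 site, at chr19:18747380-18748001, with a peak in all 3 control libraries and no rMSC library. At all 4 loci, 2 of these 34 sites lay within 2 kb of a RefSeq promoter start, beside 7.01% of the sites chosen the same way over the genome and 27.8% of all sites in all 3 rMSC libraries.

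**Figure D3:**
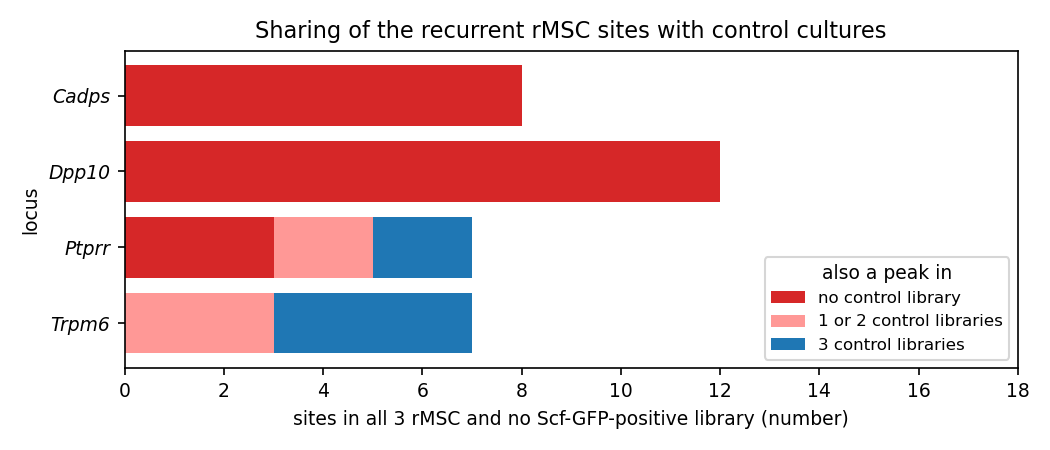
Number of sites with a peak in all 3 rMSC and no Scf-GFP-positive library (horizontal axis) at each gene, with colours for the number of control libraries that share them. All 8 sites at Cadps and all 12 at Dpp10 are in no control library, while all 7 at Trpm6 are in at least 1.

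At Cadps the rMSC sites ran along most of the gene. The 9 sites in all 3 rMSC libraries lay 1.44 to 395 kb from the 5′ end. The strongest, by the authors' fold over background averaged over rMSC (11.9), was chr14:12802849-12803404, which lies 20.0 kb inside the promoter start. That site was held by rMSC libraries only, with 14, 14 and 15 fragments at the summit. The next was chr14:12821300-12822498 (9.85), which lies 1.18 kb from the start, with 13, 12 and 10 fragments and again in rMSC only. The third, chr14:12530189-12530677 (9.35), was shared by Scf-GFP-positive replicate 2 with 5 fragments and control replicate 1 with 6, beside 15, 7 and 11 in rMSC. The first of these ranked within the top 15.0% to 20.2% of each rMSC list by −log10 p.

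At Dpp10 the rMSC sites covered the 5′ part of the gene interval and stopped short of its 3′ part. The 12 recurrent sites lay 40.4 to 928 kb from the 5′ end, and no rMSC peak lay in the last 585 kb, where 9 sites of other libraries stood. The strongest, chr1:123990123-123990691 (mean fold 19.8 in rMSC), had 25, 16 and 33 fragments and lay 55.2 kb from the RefSeq promoter start on its 3′ side. The second, chr1:124487494-124488935 (18.2), was 1442 bases wide with 17, 23 and 28 fragments and lay 443 kb from that start on its 5′ side. The third, chr1:123978567-123979000 (7.49), lay near the first and had 9, 8 and 9 fragments. All 3 were in rMSC only, and the first ranked within the top 3.52% to 14.8% of each rMSC list.

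The peaks of other libraries at Cadps and Dpp10 were few, and weak beside the strongest rMSC sites. The median rMSC peak was weak too, with 5, 6 and 7 fragments at the summit in replicates 1 to 3 at Cadps. Its fragments at Dpp10 were 6, 6 and 7, beside medians of 7 in Scf-GFP-negative replicate 1 and 6 in Scf-GFP-positive replicate 2. At Dpp10 the 6 peaks of Scf-GFP-negative replicate 1 had 5 to 10 fragments, the 5 of Scf-GFP-positive replicate 2 had 5 to 7, and the 4 control peaks had 4 to 6. None of the 4 control peaks at Dpp10 fell on an rMSC site, and 1 Scf-GFP-positive site did. Scf-GFP-negative replicate 1 has the highest background of the 10 libraries (0.715 fragments, others from 0.236).

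At Ptprr the strongest sites lay in the 3′ part of the gene, toward the next gene, and were shared with control. The strongest, chr10:116266486-116267808 (mean fold 21.1 in rMSC), had 21, 30 and 28 fragments in rMSC and 8, 16 and 10 in control. The site chr10:116260580-116262046 (15.2) had 13, 24 and 19 in rMSC and 19, 10 and 10 in control. Between them in strength, chr10:116192058-116192846 (17.1) had 24, 15 and 24 fragments in rMSC, 6 and 3 in control replicates 2 and 3, and no peak in control replicate 1. Fragments are not scaled for depth, which the lists do not give, so no difference between libraries is drawn from them. The 3 sites in no control library had mean folds of 5.46 to 7.47 and lay at 66.1, 158 and 193 kb from the 5′ end.

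Ptprb, the vascular endothelial phosphatase gene, starts 0.569 kb beyond the 3′ end of Ptprr. With 10 kb before it, its locus covers the Ptprr 3′ flank and also the last part of the Ptprr body. The strongest Ptprr site, chr10:116266486-116267808, lies in that part, so the Ptprb counts include summits already counted at Ptprr. Its equal-size counts were 6, 4 and 3 in rMSC, 4 in each control library, 1 and 0 in Scf-GFP-positive and 0 in both Scf-GFP-negative libraries. Ptprb was higher in control than in Scf-GFP-negative stroma (adjusted p = 0.0015, limma), and its rMSC and control counts overlapped. Which of the 2 genes the shared sites belong to was not tested. Taf7l2, which lies inside Ptprr, was at 0 in every library.

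At Trpm6 the strongest site was common to all 6 cultures. That site, chr19:18890019-18890856 (mean fold 32.5 in rMSC), lies near the 3′ end of the gene, with 42, 37 and 44 fragments in rMSC and 31, 38 and 36 in control. It ranked within the top 1.62% to 5.41% of all 6 lists. The second, chr19:18758839-18759448 (29.7), lies 9.41 kb inside the promoter start, with 39, 31 and 42 fragments in rMSC, 11 and 13 in control replicates 2 and 3, and no peak in control replicate 1. It was in the top 1.87% to 3.98% of the rMSC lists and the top 18.9% to 23.8% of those 2 control lists. The third, chr19:18766302-18766897 (15.5), had 19, 18 and 20 fragments in rMSC and 11, 13 and 11 in control. At the second site the rank within the list was thus higher in each rMSC library than in either control library that held it, a comparison picked after the values were seen.

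**Figure D4:**
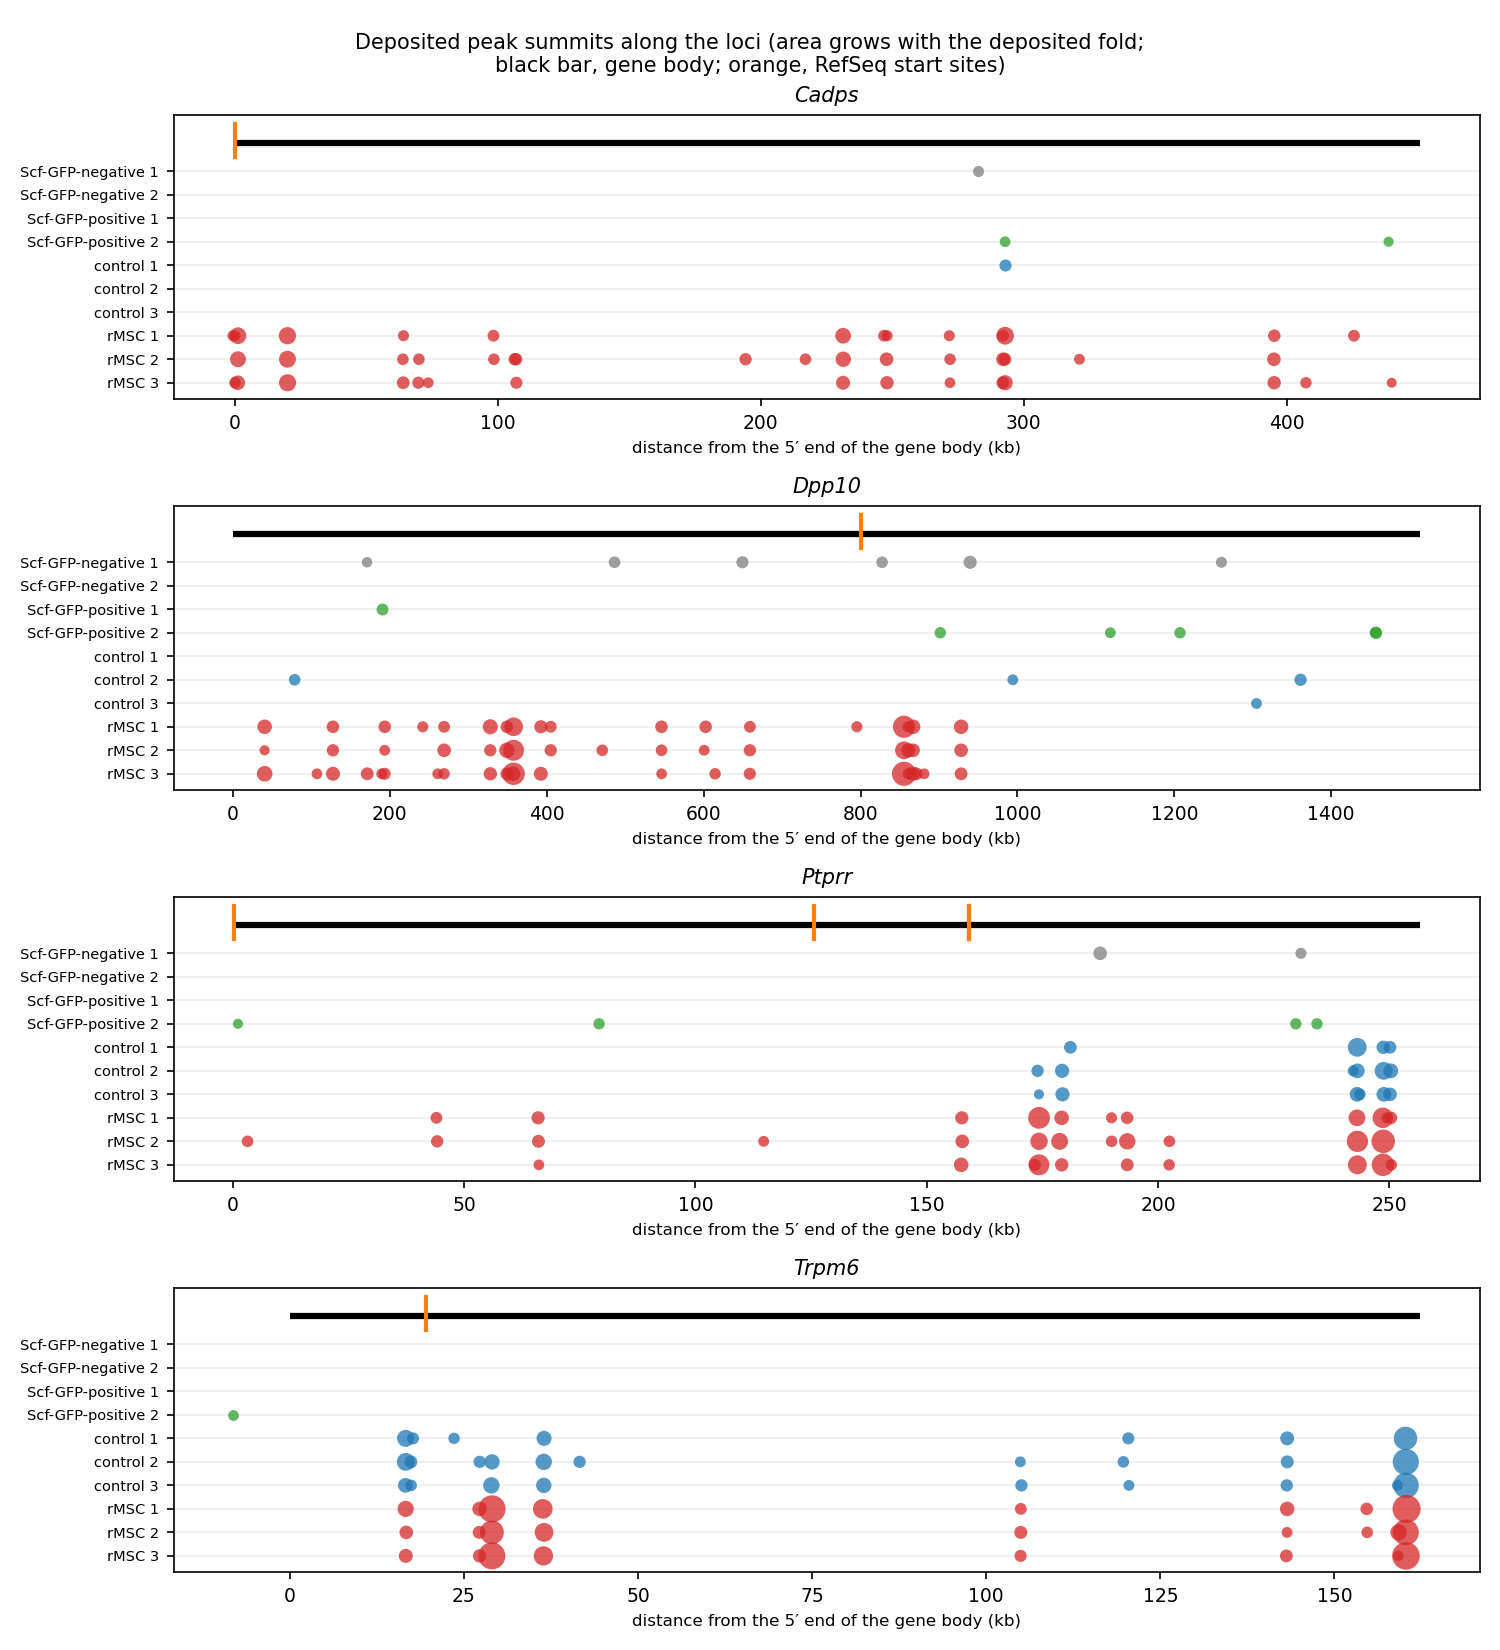
Deposited peak summits in each library (rows) by distance in kb from the 5′ end of the gene body (horizontal axis; the black bar is the gene body, orange ticks are RefSeq start sites, and point area grows with the deposited fold). At Dpp10, and at Cadps but for 1 site, the columns of points that recur in all 3 rMSC rows have no point in the other rows, and at Trpm6 4 of 7 such columns run through all 6 culture rows.

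Beyond the loci the exact test could not reach the 0.05 threshold, since 0.1 is the smallest p that 3 libraries against 3 allow, so the flanks are given as values. In flanks from 10 to 210 kb outside each gene, equal-size lists held 4 ± 1 summits in rMSC and 2.33 ± 0.577 in control at Cadps (SD, n = 3 each; exact permutation test, two-sided, p = 0.2). At Dpp10 they held 1.33 ± 1.15 and 0 (exact p = 0.4), at Ptprr 5 ± 2.65 and 3 ± 1 (exact p = 0.5), and at Trpm6 7.67 ± 0.577 and 7.67 ± 1.15 (exact p = 1). Adjusted over the 4 flanks, p was 0.667 for the first 3 and 1 for Trpm6. With all deposited peaks, the flanks held 3 ± 1 summits in rMSC and 0 in control at Dpp10, and 14.3 ± 3.51 and 7.33 ± 2.52 at Ptprr (SD, n = 3 each; exact permutation p = 0.1 for both, the smallest possible). In equal-size lists, rMSC libraries held 4, 3 and 2 summits on the side before the Cadps start and all 7 others 0. With all deposited peaks that side held 4, 6 and 3 in rMSC, 2 in control replicate 2 and 0 in the other libraries. These values were picked out after they were seen.

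At none of the neighbouring genes did every rMSC library lie above every control library. That pattern held at only 8.91% of all tested loci, so its lack at so few genes is no separate result. Fezf2, 25.8 kb from Cadps, had 1 summit in 1 control library and 0 elsewhere, and Synpr, 461 kb away on the other side, had 3, 2 and 2 in rMSC and 3, 4 and 3 in control. Beside Dpp10, Ddx18 (1764 kb away) had 1 in every library, and Actr3 (547 kb away) had 3, 3 and 2 in rMSC and 2 in each control library. Tspan8, 168 kb before Ptprr, had 1, 1 and 0 in rMSC and 0 in control. Rorb, 38.1 kb beyond Trpm6, had 2 in each of the 6 cultures, and D030056L22Rik, 11.7 kb before it, had 2 in each rMSC library and 2, 1 and 2 in control. Ostf1, one of the transduced genes, lies 98.4 kb from Trpm6, with 4, 5 and 4 summits in rMSC and 5, 5 and 4 in control.

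Neural and Schwann cell marker loci (9 genes) moved with the rMSC group. Their summed equal-size counts were 17 to 26 in rMSC, 9 to 11 in control, 9 in Scf-GFP-positive and 11 to 13 in Scf-GFP-negative libraries. The S100b locus had 4 summits in each rMSC library and 0, 1 and 0 in control, and it lies on chromosome 10. Sox10, a neural crest and glial regulator, had 1 in each rMSC library and 0 in control, and Syt1 had 4, 6 and 8 against 4, 2 and 2. Neurod1, a neuronal regulator, had 0, 0 and 1 in rMSC and 0 in control, and none of the 9 was at 0 in all rMSC libraries. Cadps and Dpp10 are also best known from neurons, and the part of these loci in their rMSC counts was not tested.

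Regulated exocytosis genes are the partners of Cadps. Of 28 listed, 16 were tested, and every rMSC library lay above every control library at 1, Stxbp5, and below at none, beside 8.91% and 6.83% of all tested loci. Of the 12 under the minimum of 2 summits, Rims1, an active zone protein, held 2, 3 and 2 summits in rMSC, 0 in each control library and 3 and 2 in Scf-GFP-positive libraries, and its relative Rims2 4, 1 and 4 against 1, 0 and 0; both were picked after their values were seen. Others of the 12 were not higher in rMSC: Cadps2 held 0 in every culture, and Doc2b 1, 0 and 1 in rMSC against 2, 1 and 3 in control. The most summit-rich of the tested genes were Unc13a and Unc13b, vesicle priming factors, Vamp2, a vesicle fusion protein, and Rab3a, a vesicle GTPase. Unc13a held 7, 4 and 5 summits in rMSC and 5, 6 and 6 in control, Unc13b 5, 5 and 7 against 6, 6 and 7, Vamp2 5, 4 and 5 against 5, 6 and 6, and Rab3a 4, 4 and 3 against 4, 2 and 2. Against Scf-GFP-negative stroma, 1 list gene was higher in control and 5 were lower, Rab3a among the latter (4, 2 and 2 against 7 and 8, adjusted p = 0.00573, limma), beside 16.5% and 25.0% of all tested loci.

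The dipeptidyl peptidase and Kv4 list, around Dpp10, held few summits: 6 of 13 were tested and none passed against Scf-GFP-negative stroma in either direction (limma; 0 also at an unadjusted p under 0.05), beside 16.5% higher and 25.0% lower over all tested loci. The Kv4 channel genes Kcnd1, Kcnd2 and Kcnd3 and the close relative Dpp6 were below the minimum of 2 summits. Dpp7 had 3 in each rMSC library and 1, 2 and 2 in control, without overlap, and Kcnip3, a Kv4-interacting calcium sensor, had 0, 1 and 1 against 3, 3 and 2, also without overlap; over all tested loci 8.91% lay above and 6.83% below in this way. Dpp9 (2, 3 and 2 against 4, 3 and 4) and Kcnip1 (4, 5 and 4 against 5, 7 and 5) overlapped.

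Receptor-type phosphatases, the relatives of Ptprr, moved in both directions between control and Scf-GFP-negative stroma. Of 20 listed, 15 were tested, and 6 were higher and 4 lower in control, beside 16.5% and 25.0% of all tested loci. Ptprb, whose locus shares summits with Ptprr, is among the 6. Ptprm, an adhesion phosphatase, held 17, 19 and 16 summits in control and 1 and 0 in Scf-GFP-negative libraries (adjusted p = 0.000193, limma), and Ptprg 11, 13 and 9 against 1 and 0 (adjusted p = 0.000602, limma). Ptprj, known in blood cells, was lower in control (6, 7 and 6 against 16 and 23, adjusted p = 0.00407, limma), as was Ptpre (4, 2 and 12 against 13 and 25, adjusted p = 0.0493, limma). Unlike Ptprr, Ptprm and Ptprg already held 10 to 11 summits in each Scf-GFP-positive library. Between rMSC and control, 1 of 15 lay above without overlap, Ptpra, and 1 below, Ptpru, beside 8.91% and 6.83% of all tested loci.

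Genes of the MAP kinase pathway on which the Ptprr phosphatase acts mostly overlapped between the 2 cultures. Of 25 listed, 19 were tested, and at none did every rMSC library lie below every control library, beside 6.83% of all tested loci. Dusp1 (6, 6 and 8 against 8, 8 and 5), Spred2 (5, 5 and 4 against 6, 8 and 5) and Ptpn7 (4, 3 and 4 against 4, 3 and 5) overlapped, as did Dusp8 (3 in each against 4, 3 and 4). Against Scf-GFP-negative stroma 2 of the 19 were higher and 4 lower in control, beside 16.5% and 25.0% of all tested loci, with Dusp8 among the lower (adjusted p = 0.00299, limma).

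TRPM channels and magnesium transporters, around Trpm6, gave 17 tested of 21, with none above or below control in every rMSC library (8.91% and 6.83% of all tested loci). Against Scf-GFP-negative stroma 3 of the 17 were higher in control and 4 lower, beside 16.5% and 25.0% of all tested loci. Trpm1 was the nearest to Trpm6 in this comparison, with 6, 5 and 5 summits in control and 0 in both Scf-GFP-negative libraries (adjusted p = 3.39e-05, limma), yet it held 4 in each Scf-GFP-positive library, where Trpm6 had 0. Trpm3 held 4, 6 and 10 in control and 1 in each Scf-GFP-negative library (adjusted p = 0.00359, limma), with 10 and 6 in Scf-GFP-positive. Cnnm2, a magnesium transport protein, was lower in control (3, 2 and 3 against 12 and 11, adjusted p = 0.0015, limma), and Trpm8 did not pass (5, 3 and 5 against 15 and 5).

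Among all tested loci outside 500 kb of each gene, the profiles most like each were named by Pearson's r of log2(summits + 0.5) over the 10 libraries, which share list size and, within a group, cell type. For Cadps these were Hsf2 (r = 0.966), Gid4 (0.959) and Zfp68 (0.959): Hsf2 had 4, 6 and 6 summits in rMSC and 1 to 2 in the other 7 libraries. For Dpp10 they were Zfp697 (0.954), Pdpk1 (0.929) and S100b (0.924). For Ptprr they were Gpr39 (0.997), with 6, 6 and 5 in rMSC and 4, 4 and 3 in control, Cadm2 (0.984) and Tspan5 (0.976). For Trpm6 they were Gpc2, Cyp2t4 and Zfp940 (0.995 each), all with 2 in every fresh and 3 in every cultured library. Hsf2 and S100b lie on chromosome 10, which held the rMSC excess given above for Ptprr. Between the 4 genes themselves, r was 0.952 for Ptprr and Trpm6, 0.756 for Cadps and Dpp10, 0.696 for Cadps and Ptprr, 0.640 for Cadps and Trpm6, 0.437 for Dpp10 and Ptprr, and 0.296 for Dpp10 and Trpm6. The genes were chosen for a shared pattern of high rMSC and low Scf-GFP-positive counts, which raises each of these.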

How the data were processed

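ATAC-seq peak lists of 10 mouse libraries in 4 groups (2, 2, 3 and 3) were used. The tools and build named, per the submitters' processing notes, are BWA, MACS2 and mm10; for versions and parameters, none is given in the labels or file headers. The authors deposited 1 list per library with a score, a fold over background (ratio), −log10 p, −log10 q and the summit offset; the deposited score is the whole part of 10 times the −log10 q in 100% of peaks. Fragments at the summit were derived from the deposited fold with 1 background value per library, chosen to bring them nearest to whole numbers. They were whole (within 0.01) in 100% of the peaks used for that choice, which left out the highest folds.

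Summits were counted in gene bodies of GRCm38.p6 with 10 kb on either side, chromosomes 1 to 19 and X, in equal-size lists of 39912 peaks; the 725 to 9121 peaks tied at the end of a list were drawn at random with a fixed seed. limma 3.58.1 (R 4.3.3) with a trend was fitted to log2(summits + 0.5) at loci averaging 2 or more summits, 4 groups in 1 fit, two-sided, and was checked on simulated counts. Exact permutation tests used scipy 1.17.1. Replicate 1 of each group was run on 1 flow cell and the others on a second, per the file names.

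Genes named in the text are the 4 members, their nearest neighbours, the 3 loci most like each, the 4 list members with the most summits and the 3 strongest recurrent rMSC sites; others were chosen after their values were seen. A result on the MAP kinase list is not reported here. The members and lists were chosen with earlier results of these data known. Alternatives covered peak thresholds, list scaling, flanks, filters, pseudocounts, the replicate block, flow cell and leaving out each library.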

Additional observations from a re-analysis of the deposited data

How the results depend on the processing

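Leaving out each library in turn gave 2 to 3 members called between control and Scf-GFP-negative stroma (2 with all libraries), 3 to 4 members with rMSC above control without overlap, 4 to 4 with rMSC above Scf-GFP-positive, 3121 to 3711 loci called, and 34 to 39 recurrent rMSC sites. The called members were 1 with all deposited peaks and 1 with 50 kb on either side of the gene, and 2 under the other 12 alternatives. Over all loci, 3803 were called, with 2380 at 2 kb on either side (1225 higher, 1155 lower) and 7137 at 50 kb; the split was 2180 and 804 with −log10 q of at least 5, and 2430 and 1987 with all peaks scaled to equal totals. The Cadps difference from Scf-GFP-negative stroma was -0.26 with all deposited peaks, -0.27 with these scaled and -0.26 with tied peaks kept, and Dpp10 was 0.53 without Scf-GFP-negative replicate 1 and -2.64 without replicate 2; the cause was not tested. Recurrent rMSC sites numbered 19 in equal-size lists, which hold fewer peaks, and 23 at −log10 q of at least 5. Flank differences (rMSC minus control) were 0 at Cadps within 110 kb, and 3, 7 and 2.67 at Dpp10, Ptprr and Trpm6 with all deposited peaks (exact permutation p = 0.1, 0.1 and 0.3). Dropping tied peaks left Cadps under the minimum of 2 summits and so untested; the alternatives for tied peaks and for chromosome shares were chosen after seeing the data. Replicate 1 of each group shared a flow cell. Deviations of same-numbered libraries had correlations of -0.0165 to 0.00113, which cannot show that nothing else is shared. The replicate block gave 2 members and 3238 loci called (Ptprr adjusted p = 0.0131, Trpm6 0.00056, limma).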
